A study of Mus musculus with 4 samples.

Results

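Toll-like receptors (TLRs) and their coreceptors were examined in cultured mouse macrophages. The members were taken by gene symbol as the rows for Tlr1, Tlr2, Tlr4, Tlr6, Tlr7, Tlr8, Tlr9, Tlr13, Cd14 and Ly96, which gave 10 of the 34745 genes in the deposited table, and all 10 passed the filter on low counts that left 12418 genes tested. Total RNA was sequenced from 2 libraries labelled WT and 2 labelled KO, numbered 1 and 2 within each genotype. Per the study's text, the WT were bone marrow-derived macrophages of G3bp1 f/f mice, and the KO (G3bp1mac-/-) those of the same floxed mice carrying Cre under the Lyz2 promoter, which is active in monocytes, macrophages and granulocytes. G3BP1 is the assembly scaffold of stress granules, and the comparison asked which genes differ in its absence. The macrophages of both genotypes thus share the floxed alleles, the culture medium and the absence of any stimulus named in the labels. The age and sex of the donor mice are not given in the labels, nor is whether the numbered libraries came from separate mice or cultures, so that p-values measure only the spread between these libraries.

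TLRs are sensors of microbial products on myeloid cells. TLR2 pairs with TLR1 or TLR6 at the cell surface to bind bacterial lipopeptides, and TLR4 binds lipopolysaccharide together with MD-2, the product of Ly96, after its delivery by CD14. TLR7, TLR8, TLR9 and TLR13 read nucleic acids in endosomes. The receptors signal through MyD88, and TLR4 also through TRIF, to the NF-κB and interferon regulatory factors, and in macrophages this signalling is known to change the mRNA of some receptors themselves.

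Library totals ran from 16724241 to 19747909 counts. Levels within a gene are given as CPM, edgeR's counts-per-million measure on TMM-scaled totals, and with 0 counts a gene could still reach 0.152 to 0.188 CPM, depending on the library and by counting error only. G3bp1, the targeted gene, was at 104 and 180 CPM in WT and at 70.1 and 117 CPM in KO. It was lower in KO within each replicate number, but the genotypes overlapped and the log2 difference of -0.61 (SE 0.40) had an edgeR adjusted p of 0.904, so that this transcript gives no clear check of the labels. The macrophage label was met by its markers: 9 macrophage genes besides Cd14, with Lyz2 and Cd68 among them, summed to between 21179 and 26548 CPM per library. Markers of other cells also differed between the genotypes. The 8 stromal genes, all tested, summed to 73.8 and 87.7 CPM in WT and to 323 and 296 CPM in KO. The 6 B cell genes, 5 of them tested, summed to 43.1 and 47.0 CPM in WT and to 23.4 and 27.0 CPM in KO. The 8 neutrophil genes, 2 of them tested and Mpo and Elane at 0 counts, summed to 22.1 and 21.2 CPM in WT and to 7.72 and 11.3 CPM in KO. The 6 mast cell and basophil genes, 2 of them tested and Mcpt8 at 0 counts, summed to 32.9 and 33.99 CPM in WT and to 17.6 and 21.02 CPM in KO, and the 8 dendritic cell genes, 4 of them tested, to between 5.30 and 9.66 CPM in every library. Genes of the Y chromosome were detected in every library and Xist had at most 2 counts. The replicate numbers also differed: 57.4% of the variance lay on a first principal component on which number 1 stood apart from number 2 in both genotypes.

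Promoter sequence is shown for Tlr2, Tlr1 and Tlr9, which differed most between replicates among the members whose windows were searched, and for Tlr13, an abundant member that differed less. The bases come from the RefSeq table for GRCm38.p6, of which the windows of 6 of the 10 members were searched (Tlr1, Tlr2, Tlr6, Tlr8, Tlr9 and Tlr13). No window was found for Tlr4, Tlr7 and Ly96. Cd14 was left out of the search by its chromosome, 18, so that its promoter was not examined. Each run is the part of the 250 bases before the RefSeq start that lies outside the gene span of the deposited table. The Tlr2 run is chr3:83841768-83841858 on the minus strand, the Tlr1 run chr5:64933564-64933808 on the minus strand, the Tlr9 run chr9:106222348-106222597 on the plus strand and the Tlr13 run chrX:106143025-106143203 on the plus strand. Capitals mark matches to the NF-κB consensus in Tlr2 and to GAGGAA, the core of sites for the myeloid factor PU.1, in the others.
Tlr2: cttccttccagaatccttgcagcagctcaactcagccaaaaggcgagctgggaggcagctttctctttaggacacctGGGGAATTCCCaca
Tlr1: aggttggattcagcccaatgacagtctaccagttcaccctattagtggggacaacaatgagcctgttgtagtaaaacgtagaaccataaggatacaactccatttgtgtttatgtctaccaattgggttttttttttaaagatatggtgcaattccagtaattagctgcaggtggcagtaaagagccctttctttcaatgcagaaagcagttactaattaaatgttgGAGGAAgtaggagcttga
Tlr9: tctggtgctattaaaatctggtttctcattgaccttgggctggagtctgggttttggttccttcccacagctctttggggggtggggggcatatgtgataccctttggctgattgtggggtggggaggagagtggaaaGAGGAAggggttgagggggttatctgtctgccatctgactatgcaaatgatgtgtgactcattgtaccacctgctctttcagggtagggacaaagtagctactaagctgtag
Tlr13: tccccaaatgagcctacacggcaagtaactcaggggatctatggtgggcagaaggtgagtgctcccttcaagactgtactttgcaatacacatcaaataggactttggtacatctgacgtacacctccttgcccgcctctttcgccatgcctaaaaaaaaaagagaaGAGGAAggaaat

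Motifs were searched on both strands of the 250 bases. The Tlr2 match, bases -173 to -163 from the RefSeq start, holds 2 overlapping NF-κB matches. It was the only NF-κB match in the windows searched, which leave out Cd14, against 7.25% of the 32851 windows of all genes. GAGGAA was present before 1 of the 2 starts of Tlr1 (-23 to -18) and before Tlr9 (-112 to -107), Tlr13 (-83 to -78) and Tlr8 (-77 to -72, on the other strand), against 23.3% of all windows. TGANTCA, the AP-1 site, was present before Tlr9 (-58 to -52), against 6.75%, and the consensus of the interferon-stimulated response element, was present before 1 of the 2 starts of Tlr6, against 2.98%. A match describes the letters and is no evidence of binding.

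The members spanned a wide range of levels. Measured per length, as FPKM (fragments per kilobase of gene length, scaled by the authors to the library total), the mean over the 4 libraries was 224 for Cd14, 103 for Tlr2, 95.9 for Tlr13, 15.3 for Tlr1, 12.3 for Ly96, 10.4 for Tlr6, 9.31 for Tlr8, 7.67 for Tlr7, 2.35 for Tlr4 and 1.42 for Tlr9. In that order each neighbour's range over libraries overlapped the next, except that Tlr13 (73.9 to 139 FPKM) lay above Tlr1 (3.84 to 26.8 FPKM) in every library. The level of Tlr4, the lipopolysaccharide receptor, was thus low beside its partners: the ratio of Cd14 to Tlr4 in FPKM was 34.04 and 235 in the WT libraries and 23.4 and 151 in the KO libraries. The highest member differed with the replicate number. In both libraries numbered 1, Tlr13 was the highest member, with 91.8 FPKM in WT and 139 FPKM in KO. In both libraries numbered 2, Cd14 (409 and 338 FPKM) and Tlr2 (206 and 192 FPKM) lay above it. FPKM values depend on the gene length the authors used, which counts and FPKM imply to be 6759 bases for Tlr4 and 1584 bases for Ly96.

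**Figure D1:**
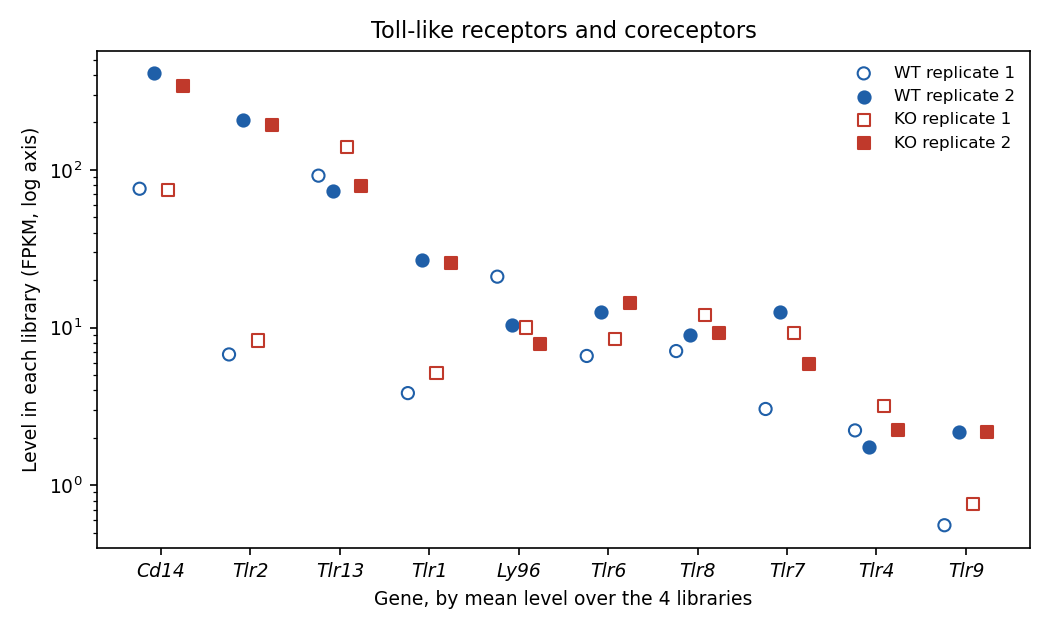
Level of each member in each library as FPKM on a log axis, ordered by the mean over the 4 libraries, with circles for WT, squares for KO, open symbols for replicate 1 and filled symbols for replicate 2. For Cd14, Tlr2, Tlr1 and Tlr9 the filled symbols of both genotypes lie above the open ones, while the values of Tlr13 stay between 73.9 and 139 FPKM.

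Among the surface receptors, Tlr2 varied most. Tlr2 (ENSMUSG00000027995, chromosome 3, 83836272 to 83841767 on the minus strand, 3 exons), the shared chain of the lipopeptide receptors, was counted 346 and 10528 times in WT (replicate 1 first, as throughout) and 417 and 11430 times in KO. These are 21.3 and 660 CPM in WT and 22.4 and 580 CPM in KO. Both libraries numbered 2 were high and both numbered 1 low, by 30.9-fold in WT and 25.9-fold in KO, and the genotypes overlapped. The pooled log2 fold change of KO against WT was -0.18 (SE 1.81, 95% confidence interval -4.77 to 4.41, edgeR adjusted p 0.994) in the fit with genotype alone, whose interval holds the spread between the replicate numbers. Comparing libraries of equal number, KO lay 0.069 above WT for number 1 and -0.19 from it for number 2 (log2).

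The partners of TLR2 were also higher in both libraries numbered 2, to different extents. Tlr1 (chromosome 5, 64924679 to 64933563 on the minus strand, 4 exons), whose product pairs with TLR2 for triacylated lipopeptides, had 24.8 and 175 CPM in WT and 28.3 and 157 CPM in KO. Replicate 2 was 7.07-fold above replicate 1 in WT and 5.55-fold above it in KO. Tlr6 (chromosome 5, 64952031 to 64960097 on the minus strand, 2 exons), the partner for diacylated lipopeptides, had 28.5 and 54.6 CPM in WT and 31.2 and 58.7 CPM in KO, or 1.91-fold and 1.88-fold between replicates. The ratio of Tlr1 to Tlr6 in FPKM was therefore below 1 in both libraries numbered 1 (0.581 in WT and 0.607 in KO) and above 1 in both numbered 2 (2.15 and 1.79). The genotypes overlapped for both genes, and KO differed from WT by -0.11 (log2, SE 1.11, 95% confidence interval -2.93 to 2.71, edgeR adjusted p 0.994) for Tlr1 and 0.11 (SE 0.45, 95% confidence interval -1.04 to 1.27, edgeR adjusted p 0.990) for Tlr6. The genes lie next to each other and share sequence, since 13.6% of the 50-base stretches of the Tlr1 transcripts also occur in those of Tlr6, so that part of their counts could be split either way, as the source does not state how such reads were assigned.

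The members of the lipopolysaccharide receptor complex differed in how they varied. Cd14 (chromosome 18, 36725074 to 36726736 on the minus strand, 2 exons), which hands lipopolysaccharide to the complex, had 125 and 682 CPM in WT and 105 and 532 CPM in KO, 5.46-fold and 5.05-fold higher in replicate 2. Tlr4 (chromosome 4, 66827584 to 66930284 on the plus strand, 3 exons) had 15.8 and 12.5 CPM in WT and 19.4 and 15.1 CPM in KO. Its values were lower in both libraries numbered 2, at 0.792 of replicate 1 in WT and 0.782 in KO, the opposite direction to Cd14. Tlr4 had a log2 fold change of 0.29 (SE 0.27, 95% confidence interval -0.40 to 0.97, edgeR adjusted p 0.957), or 0.29 and 0.28 when libraries of equal number were compared, and the genotypes overlapped. For Cd14 KO differed from WT by -0.34 (log2, SE 1.02, 95% confidence interval -2.92 to 2.25, edgeR adjusted p 0.983). The ratio of Tlr2 to Tlr4 in FPKM was 3.03 in WT replicate 1 and 2.59 in KO replicate 1, against 119 in WT replicate 2 and 86.0 in KO replicate 2.

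Ly96, which encodes MD-2, the subunit of the TLR4 complex that holds lipopolysaccharide, was the member with the smallest p. Ly96 (ENSMUSG00000025779, chromosome 1, 16688051 to 16709611 on the plus strand, 5 exons) was counted 566 and 280 times in the WT libraries and 265 and 246 times in the KO libraries. The levels were 34.9 and 17.6 CPM in WT and 14.2 and 12.5 CPM in KO, so that both KO libraries lay below both WT libraries, and WT replicate 1 stood above the other 3. It was the only one of the 10 members whose genotypes did not overlap, where 36.9% of all tested genes did not overlap. The log2 fold change of -0.97 (SE 0.38, 95% confidence interval -1.93 to -0.016) had an unadjusted p of 0.0475. After Benjamini-Hochberg adjustment the edgeR quasi-likelihood p was 0.737, so the difference did not pass the threshold. It was -1.29 within number 1 and -0.49 within number 2, and -0.39 once WT replicate 1 was left out. Bulk RNA cannot tell fewer cells of a type from less RNA per cell, and the part in this value of the stromal, B cell, neutrophil, mast cell and basophil genes that also differed between genotypes was not tested. The ratio of Ly96 to Tlr4 in FPKM was 9.43 and 6.004 in WT and 3.13 and 3.52 in KO.

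Of the endosomal receptors, Tlr13 and Tlr8 had the most even levels. Tlr13 (chromosome X, 106143204 to 106160493 on the plus strand, 3 exons), a mouse receptor for a stretch of bacterial ribosomal RNA, had 402 and 328 CPM in WT and 521 and 330 CPM in KO, and the highest library, KO replicate 1, was 1.88-fold above the lowest in FPKM. Tlr8 (chromosome X, 167242696 to 167264329 on the minus strand, 3 exons), a relative of Tlr7 that lies next to it, had 58.0 and 74.4 CPM in WT and 83.6 and 72.1 CPM in KO. The genotypes overlapped for both genes. KO differed from WT by 0.22 (log2, SE 0.31, 95% confidence interval -0.56 to 1.01, edgeR adjusted p 0.965) for Tlr13 and 0.23 (SE 0.25, 95% confidence interval -0.40 to 0.87, edgeR adjusted p 0.962) for Tlr8. These intervals and that of Tlr4 were the narrowest among the members in the fit with genotype alone and leave room for about a 2-fold rise but not for a fall of that size.

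Tlr9 (chromosome 9, 106222598 to 106226883 on the plus strand, 2 exons), the receptor for unmethylated CpG DNA, was the lowest member, counted 33 and 129 times in the WT libraries and 44 and 149 times in the KO libraries. Its levels, 2.03 and 8.09 CPM in WT and 2.36 and 7.56 CPM in KO, were 3.94-fold and 3.18-fold higher in replicate 2, as for the surface genes Tlr2, Tlr1 and Cd14. KO differed from WT by -0.026 (log2, SE 0.82, 95% confidence interval -2.11 to 2.06, edgeR adjusted p 0.996). TLR9 is also made by B cells and plasmacytoid dendritic cells. The B cell genes summed to 43.1 and 47.0 CPM in the WT libraries and to 23.4 and 27.0 CPM in the KO libraries. The 8 dendritic cell genes summed to 5.30 and 9.66 CPM in WT and to 5.36 and 8.73 CPM in KO, and were thus also higher in both libraries numbered 2. Of the 4 tested, 2 were over 2-fold higher in replicate 2 in both genotypes, but only 1 of the 4 had at least 10 counts in every library and it was not among them. Replicate 2 was higher for Zbtb46 (4.25-fold in WT and 2.70-fold in KO), Ccr9 (2.30-fold and 2.62-fold), which plasmacytoid dendritic cells can express, and Ccr7 (1.88-fold and 1.19-fold), and Cd209a was at 0.264 of replicate 1 in WT and 1.37-fold above it in KO. Siglech, a further plasmacytoid marker that was not tested, had at most 2 counts. The part of these cells in the level of Tlr9 was not tested.

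Tlr7 was the only member that differed between replicates in opposite directions in the 2 genotypes by more than the 2-fold used here in 1 of them. Tlr7 (chromosome X, 167304929 to 167330558 on the minus strand, 5 exons), a receptor for single-stranded RNA, was counted 596 and 2447 times in the WT libraries and 1772 and 1332 times in the KO libraries. The levels were 36.7 and 153 CPM in WT and 95.03 and 67.6 CPM in KO. WT replicate 2 was thus 4.18-fold above WT replicate 1, whereas KO replicate 2 was 0.712 of KO replicate 1, and both KO libraries lay between the WT libraries. On the log2 scale KO minus WT was 1.37 for the libraries numbered 1 and -1.18 for those numbered 2, a difference that rests on 1 library each and was not tested. Pooled, KO differed from WT by -0.23 (log2, SE 0.67, 95% confidence interval -1.92 to 1.47, edgeR adjusted p 0.982), and it became 1.12 once WT replicate 2 was left out and -0.91 once WT replicate 1 was. The ratio of Tlr8 to Tlr7 in FPKM was 2.33 and 0.715 in WT and 1.296 and 1.57 in KO.

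**Figure D2:**
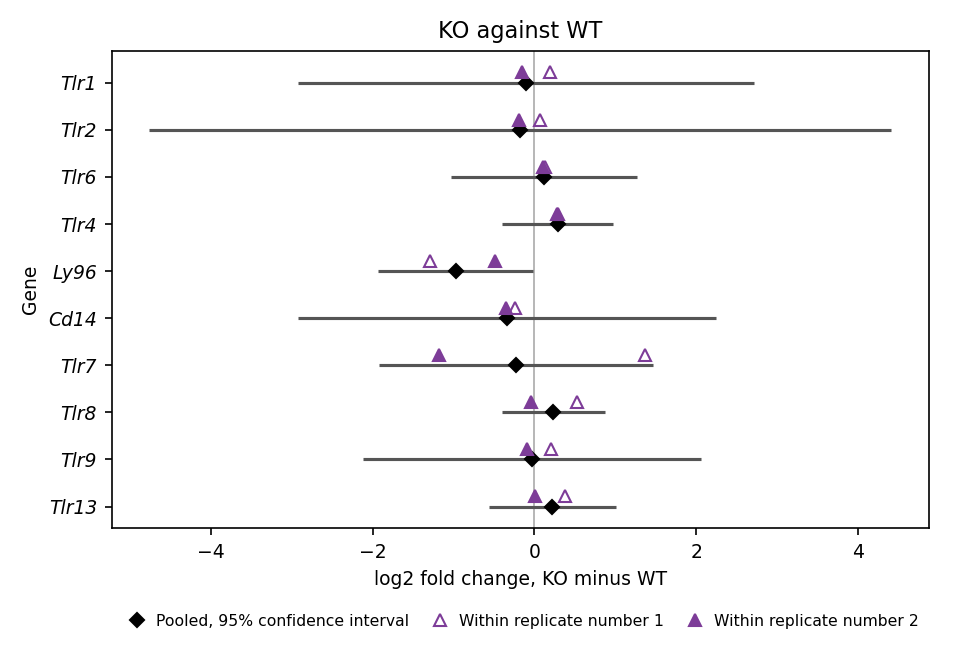
Log2 fold change of KO against WT for each member: diamonds give the pooled edgeR value, lines its 95% confidence interval, and triangles the ratio within replicate number 1 (open) and 2 (filled). The intervals include 0 except for Ly96 (-1.93 to -0.016), and the triangles lie on opposite sides of 0 for Tlr1, Tlr2, Tlr7, Tlr8 and Tlr9, farthest apart for Tlr7 (1.37 and -1.18).

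Across the members, edgeR's quasi-likelihood test called 0 of 10 (adjusted p below 0.05 with a change of more than 2-fold), where 0% of the 12418 tested genes were called. At an unadjusted p under 0.05 there was 1 of 10, Ly96, where 6.63% of all tested genes lay below that value. The DESeq2 Wald test and the edgeR exact test also called 0 of the 10, where they called 1.46% and 1.40% of all genes. So did the fits with a term for the replicate number, where 5.35% of all genes were called, and with that term and a correction for gene length, where 2.57% were. The median log2 fold change was -0.067 over the members and 0.041 over all tested genes, with 4 members above 0 and 6 below.

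The spread between replicates was larger than the difference between genotypes for several members. A difference between the numbers was counted when replicate 2 was over 2-fold above replicate 1 in both genotypes (0.5 counts added, TMM-scaled). Tlr2, Tlr1, Cd14 and Tlr9 met this, 4 of 10 members, where 4.36% of all tested genes did, and 0 of 10 met it in the opposite direction, where 2.42% did. These 4 comprised 3 of the 6 surface members and 1 of the 4 endosomal ones. In rank among the 12418 tested genes, Tlr2 was number 44 in WT and number 41 in KO by the log2 ratio of replicate 2 to replicate 1. Each genotype has 1 library per number, and the difference between numbers was not tested.

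**Figure D3:**
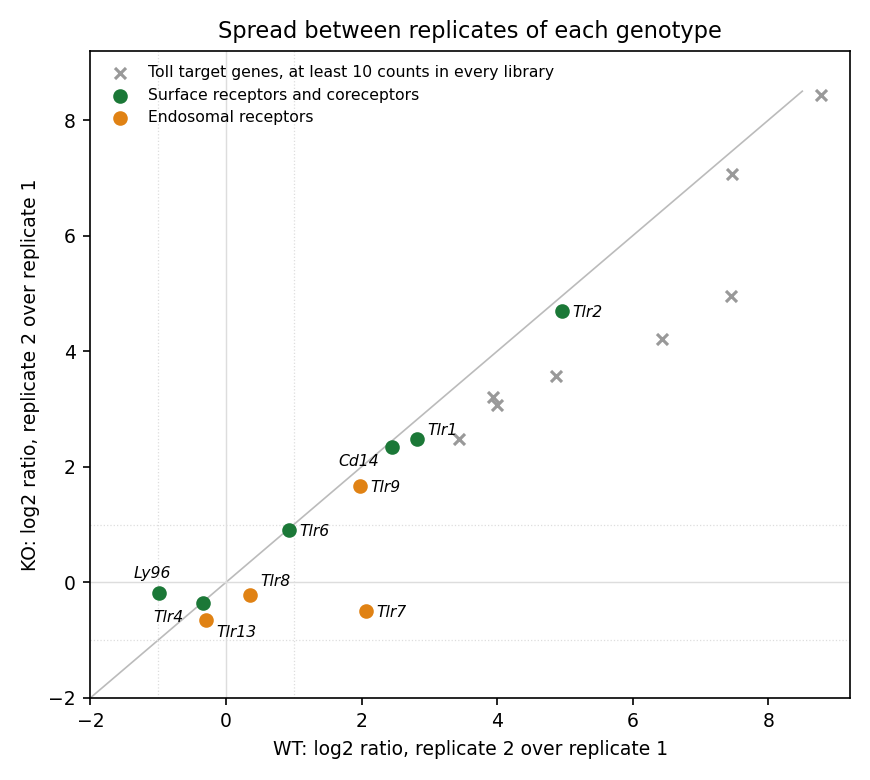
Log2 ratio of replicate 2 to replicate 1 in WT (horizontal) and in KO (vertical) for the surface members, the endosomal members and the 8 Toll target genes with at least 10 counts in every library. The solid line marks equal ratios and dotted lines 2-fold. Tlr2, Tlr1, Cd14 and Tlr9 lie near the line above 2-fold in both genotypes, Tlr7 lies off it (2.06 in WT and -0.49 in KO), and the 8 target genes lie at 2.48 or more on both axes.

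Other genes of the Toll pathway were grouped by role into 8 lists of 89 genes, of which 88 had a row and 82 were tested. Of these 82, the quasi-likelihood test called 0 in either direction (0% of all tested genes). In that test 2 had an unadjusted p under 0.05, where 6.63% of all tested genes did. The median log2 fold change was -0.097 against 0.041 over all tested genes. Replicate 2 was over 2-fold above replicate 1 in both genotypes for 24 of the 82 and below for 1. Since 6 of the 82 had fewer than 10 counts in some library and could pass the filter through the libraries in which they were high, the count was repeated on the 76 with at least 10 counts in every library. It was 19 above and 1 below, where 3.72% and 1.89% of the 11409 such genes were.

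Of the remaining TLRs only Tlr3 had enough counts to be tested. Tlr3, the double-stranded RNA receptor, was counted 136 and 143 times in the WT libraries and 183 and 168 times in the KO libraries. Tlr5, the flagellin receptor, had at most 9 counts, and Tlr11 and Tlr12, receptors for profilin, at most 4 and 1. These 3 were not tested. Among the other receptors, CD36, a scavenger receptor that assists TLR2, was encoded by the most abundant transcript, with 3568 and 3323 CPM in WT and 2954 and 3107 CPM in KO. Ly86, which encodes the MD-2 relative MD-1, had 118 and 76.3 CPM in WT and 78.8 and 77.7 CPM in KO. Of the 5 tested genes, 0 differed over 2-fold between replicates in both genotypes.

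In the list for receptor folding and trafficking 0 of 8 genes met the 2-fold rule in either direction, although smaller differences were present. Lrrc59, which assists receptor trafficking, was 1.91-fold and 1.56-fold higher in replicate 2 in WT and KO, and Arl8b, a lysosomal GTPase, was at 0.667 and 0.651 of replicate 1. Both are named after their values were seen. Unc93b1, the chaperone that carries TLR7, TLR8, TLR9 and TLR13 to endosomes, had 305 and 363 CPM in WT and 336 and 356 CPM in KO, and Hsp90b1, the chaperone gp96, had 588 and 558 CPM in WT and 593 and 554 CPM in KO. In the list of endosomal enzymes and transporters, which cleave receptors and prepare or degrade their nucleic acid ligands, 0 of 12 met the rule. By genotype, 8 of 12 lay lower in both KO libraries than in both WT libraries, where 16.9% of all tested genes did, and 1 lay higher, where 20% did. The 8 include Rnaset2a and Rnaset2b, with similar log2 fold changes (-0.49 and -0.45), and whether these shared reads was not tested. Over the 12 genes the median log2 fold change was -0.31 against 0.041 over all tested genes, -0.45 within number 1 and -0.13 within number 2, and 0 of 12 were called. Of the 10 macrophage marker rows 2 (Cd68 and C1qa) also lay lower in both KO libraries, 1 (a row of Itgam) lay higher and the others overlapped. The 5 tested B cell genes all lay lower, as did the 2 tested neutrophil genes and the 2 tested mast cell and basophil genes. Of the 4 tested dendritic cell genes 1 lay lower, and 7 of the 8 stromal genes lay higher. The part of these markers in the values was not tested. Pld4, an endosomal exonuclease, had 73.9 and 63.7 CPM in WT and 42.2 and 30.5 CPM in KO. Its log2 fold change was -0.92 (SE 0.27, unadjusted p 0.0175, edgeR adjusted p 0.503). Cathepsin S (Ctss) had 15923 and 13941 CPM in WT and 9583 and 12573 CPM in KO. Its log2 fold change was -0.43 (SE 0.20, edgeR adjusted p 0.841). Cathepsin L (Ctsl) had 13151 and 9479 CPM in WT and 7828 and 9130 CPM in KO. Its log2 fold change was -0.42 (SE 0.22, edgeR adjusted p 0.857).

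Downstream of the receptors the spread between replicates differed by list. Of the 5 tested adaptors 0 met the 2-fold rule, although Myd88 lay close to it, with 65.5 and 134 CPM in WT and 53.9 and 107 CPM in KO (2.04-fold and 1.99-fold). Pik3ap1, the adaptor BCAP, had 106 and 221 CPM in WT and 126 and 205 CPM in KO. Of the 17 kinases and ubiquitin ligases 2 met it, Ikbke, an interferon-inducing kinase, and Traf3, an adaptor ligase of the same branch, which are named after their values were seen. Tbk1 had 98.5 and 189 CPM in WT and 103 and 152 CPM in KO, and Btk 59.4 and 74.5 CPM in WT and 71.2 and 68.2 CPM in KO. Both are kinases below the receptors.

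Of the 10 transcription factors 5 met the rule, all higher in replicate 2. Nfkb2, an NF-κB subunit, had 15.9 and 203 CPM in WT and 22.9 and 184 CPM in KO, or 12.7-fold and 8.04-fold. Irf5, which acts below MyD88, was even, with 102 and 120 CPM in WT and 105 and 117 CPM in KO. Irf7, the interferon regulatory factor that TLR7 and TLR9 use, went with genotype, counted 239 and 286 times in the WT libraries and 124 and 106 times in the KO libraries, or 14.7 and 17.9 CPM against 6.65 and 5.38 CPM. Both KO libraries lay below both WT libraries, and the log2 fold change was -1.44 (SE 0.28, unadjusted p 0.0032, edgeR adjusted p 0.284). The DESeq2 Wald test called it, with an adjusted p of 0.0062. Irf7 is itself raised by interferon. The 12 interferon-stimulated genes, Irf7 among them, summed to 169 and 625 CPM in WT and to 126 and 291 CPM in KO. Of these sums Gbp2 alone made up 19.0 and 308 CPM in WT and 18.7 and 179 CPM in KO. The part of interferon in the value of Irf7 was not tested.

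Of the 13 inhibitors 5 met the rule in the same direction and 1, Inpp5d, in the opposite one. Inpp5d, named after its values were seen, encodes the phosphatase SHIP1 and had 53.7 and 25.7 CPM in WT and 72.7 and 27.1 CPM in KO. Nfkbia, the inhibitor of NF-κB that NF-κB itself induces, had 32.2 and 532 CPM in WT and 25.5 and 388 CPM in KO, or 16.5-fold and 15.2-fold. Lilrb4a, an inhibitory receptor, had 957 and 2030 CPM in WT and 842 and 1769 CPM in KO, or 2.12-fold and 2.10-fold.

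The target genes differed most. Of the 12 tested, 12 were over 2-fold higher in replicate 2 in both genotypes, and so were 8 of the 8 with at least 10 counts in every library. Tnf was counted 122 and 21261 times in the WT libraries and 98 and 14019 times in the KO libraries, or 177-fold and 135-fold. Ccl3, a macrophage chemokine, was counted 490 and 7385 times in WT and 389 and 3801 times in KO, or 15.3-fold and 9.24-fold. Il1b, named after its values were seen, was counted 2 and 6783 times in WT and 3 and 1294 times in KO. The list summed to 65.4 CPM in WT replicate 1, 3892 CPM in WT replicate 2, 45.5 CPM in KO replicate 1 and 1540 CPM in KO replicate 2. Against genotype, 0 of 12 were called and the median log2 fold change was -1.19 in the fit with genotype alone. The median was -1.24 within number 2. Within number 1 it was -0.20, the value of Nos2 and Il6, whose counts were equal in WT and KO at 0 and 2. With a term for the replicate number 4 of the 12 were called lower in KO (Cxcl2, Il1b, Cxcl1 and Ccl4), where 170 of all 12418 tested genes were. With that term and the length correction 2 were (Cxcl2 and Il1b), where 94 of all tested genes were. Within number 1 the log2 difference was -0.74 for Cxcl2, 0.29 for Il1b, -0.026 for Cxcl1 and -0.93 for Ccl4. Within number 2 it was -1.09, -2.69, -2.52 and -1.88, which rests on 1 library per genotype. The libraries high in Tlr2, Tlr1, Cd14 and Tlr9 were thus those high in Toll target genes in both genotypes, and the part of either in the other was not tested.

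**Figure D4:**
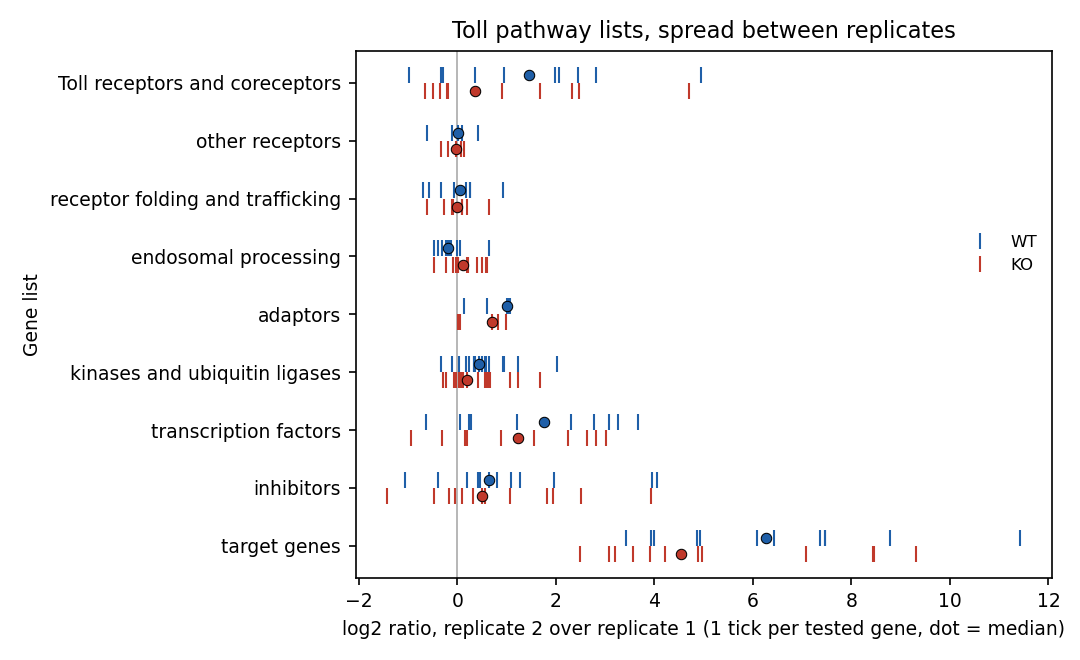
Log2 ratio of replicate 2 to replicate 1 for every tested gene of the member and pathway lists, with 1 tick per gene and a dot at the median, in WT (blue) and KO (red). The median lies near 0 for the other receptors, folding and endosomal processing, and at 6.26 in WT and 4.55 in KO for the target genes, of which 4 (Nos2, Il6, Il1b and Il12b) had fewer than 10 counts in a library.

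Genes with the pattern most like Tlr4 and Tlr7 were sought among all tested genes by the root mean square difference of mean-centred log2 CPM over the 4 libraries. For Tlr4 these were Ubxn7 (0.019), Fgfbp3 (0.021) and Thtpa (0.024). For Tlr7 they were Mybl1 (0.14), Ttc26 (0.18) and Tnfsf10 (0.19), which had between 3 and 24 counts in a library, so that their patterns carry a large counting error. With 4 libraries and 12418 genes, close patterns are many, and the likeness is a description.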

How the data were processed

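The authors filtered reads with Seqtk, aligned them with HISAT2 2.0.4 and counted fragments per gene with StringTie 1.3.3b. They deposited raw counts with an FPKM value beside each count, and the deposited FPKM carried only the library total and a gene length (implied lengths differed by at most 0.00398% between libraries). The submitters' notes name mm39, but 27682 of the 34267 gene identifiers shared with GENCODE M21 had the same position and strand on GRCm38, so positions are the table's on that build. Whether counting used strand is not given in the sources used here.

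Counts were analysed with edgeR 4.0.16 in R 4.3.3: filterByExpr (minimum count 10, minimum total count 15), TMM, genotype as the only term, glmQLFit and glmQLFTest, two-sided, Benjamini-Hochberg over all 12418 genes. Calls needed both an adjusted p below 0.05 and a change of more than 2-fold, the study's own limits. Folds between replicates had 0.5 counts added. TMM factors, 0.955 and 0.942 in WT and 1.11 and 0.997 in KO, scale CPM. No sample was left out. No 2 of the 4 libraries agreed within sampling noise (chi-square over its degrees of freedom, 21.8 to 119).

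Alternatives were DESeq2 size factors, no filter, the edgeR exact test, the Wald test of DESeq2 1.42.0, a term for the replicate number, a loess correction for gene length (span 0.5), both together, no minimum fold change and each library left out. The code was tested on simulated data. Members and lists were chosen with earlier results of these data known. All members were named. From each pathway list were named the genes called or, where there were none, up to 4 with the smallest unadjusted p under 0.05 and the 2 with the highest FPKM. Other names are marked in the text or complete a family. The symbol Tasl was not matched. Motifs were chosen after the sequences were seen.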

Additional observations from a re-analysis of the deposited data

How the results depend on the processing

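The count of called members was 0 of 10 under every alternative listed under the processing. Over all genes the count was 0 in the quasi-likelihood test, and also with DESeq2 size factors, no filter, the length correction alone, no minimum fold change and each library left out (where the lone library of a genotype is assumed to vary like the other genotype), but 181 with the DESeq2 Wald test, 174 with the edgeR exact test, 664 with the replicate block and 319 with the replicate block and gene length correction. Of the 82 pathway genes, 1 was called with the Wald test (Irf7), 5 with the block (Irf7, Cxcl2, Il1b, Cxcl1 and Ccl4) and 3 with the block and the length correction (Irf7, Cxcl2 and Il1b), all lower in KO. All but Irf7 are target genes. The cause of these differences was not tested.

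Whether equal replicate numbers share a day, batch or mouse is not stated in the labels, and there are only 2 pairs. Deviations of same-numbered libraries correlated at 0.710 across genes, which are not independent replicates. With the replicate block the sign turned for Tlr1 (0.012), Tlr7 (0.083) and Tlr9 (0.029), and Ly96 gave -0.90 with an edgeR adjusted p of 0.0046, under the minimum fold change, and -0.71 with an adjusted p of 0.112 once gene length was also corrected. The other 67 values of the members without a library left out kept their sign. Leaving out each library in turn turned the sign in 12 of 40 values. The range was -1.94 to 1.32 for Cd14, -3.93 to 3.79 for Tlr2, -0.14 to 0.51 for Tlr13, -1.82 to 1.87 for Tlr1, -0.41 to 0.62 for Tlr6, -0.91 to 1.12 for Tlr7 and -1.10 to 1.25 for Tlr9, while it was -1.42 to -0.39 for Ly96, 0.069 to 0.39 for Tlr8 and 0.098 to 0.47 for Tlr4. The precision depends on the same choice, since the SE with the replicate block was 0.24 for Tlr2, 0.23 for Tlr1, 0.23 for Cd14, 0.31 for Tlr9 and 0.25 for Tlr7, against 1.81, 1.11, 1.02, 0.82 and 0.67 without it.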
